A study of Mus musculus with 8 samples.

Results

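The genes Mllt10, Mpp7, Fam120a, Prpf40b, Sp1 and Mindy2 lie under some of the strongest Mta2 peaks in mouse kidney cortex. They are 6 of 21631 protein-coding genes on the autosomes and chromosome X, chosen by the deposited Mta2 fold, since each holds a very strong Mta2 peak. Their Mta2 values therefore describe the choice and were not tested. Peaks were assigned to a gene when the summit lay in the RefSeq gene span (GRCm38) or within 20 kb of it. By that rule the 6 genes held 94 of 149855 Mta2 peaks, 85 of 134248 Mbd3 peaks and 71 of 124616 Zbtb7a peaks.

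All libraries came from kidney cortex of mice aged 2 months with the genotype Mta2flx/flx, and the labels name no Cre allele. Chromatin was immunoprecipitated with antibodies against Mta2, Mbd3 or Zbtb7a, with Input chromatin as the reference and 2 replicates in each of these groups. The crosslinkers were disuccinimidyl glutarate at 2 mM, followed by formaldehyde at 1%. The labels call the replicates biological, and the sample titles repeat the same pair of numbers in each group without saying what these mark. Each factor is represented by 1 peak list for both replicates, so there is no value per replicate, no SD and no test over replicates. The read depth of the libraries was not analysed here. Cortex holds many cell types, and a strong peak in some cells cannot be told apart from a weaker peak in most of them.

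Mta2 and Mbd3 belong to NuRD, the nucleosome remodelling and deacetylase complex, which joins a chromatin remodelling ATPase to histone deacetylases. Mta proteins hold the deacetylases, and Mbd3 is the methyl-CpG-binding-domain subunit of one form of the complex. Zbtb7a is a BTB zinc finger transcription factor that is known to work with NuRD at some repressed genes. The peak caller's fold is the signal at a summit over the local background, as the authors deposited it. Folds of different lists come from different antibodies and depths, so a fold or a rank below is read within its own list.

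Promoter sequences are shown first because 4 of the 6 strongest Mta2 summits lay within 1 kb of an end of the gene, as did 33.0% of those of all genes with a Mta2 peak. They come from the RefSeq promoter table (GRCm38.p6) and run 5′ to 3′ from 250 bases before an annotated start to 50 after it. The table has 9 entries for 5 of the genes. For Prpf40b, the first annotated start means the first of its entries, at 99295241, whereas its gene span begins at 99295076. Capitals mark every GGGCGG on either strand, the GC box to which Sp factors bind.
Fam120a, chr13:48968011-48968310, minus strand: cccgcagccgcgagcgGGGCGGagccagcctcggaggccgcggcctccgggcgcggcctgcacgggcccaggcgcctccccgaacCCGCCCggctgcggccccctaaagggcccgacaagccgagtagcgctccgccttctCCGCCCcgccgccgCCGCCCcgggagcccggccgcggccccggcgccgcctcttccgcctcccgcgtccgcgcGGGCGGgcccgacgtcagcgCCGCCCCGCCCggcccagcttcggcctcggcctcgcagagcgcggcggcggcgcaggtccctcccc
Prpf40b, first annotated start, chr15:99294991-99295290, plus strand: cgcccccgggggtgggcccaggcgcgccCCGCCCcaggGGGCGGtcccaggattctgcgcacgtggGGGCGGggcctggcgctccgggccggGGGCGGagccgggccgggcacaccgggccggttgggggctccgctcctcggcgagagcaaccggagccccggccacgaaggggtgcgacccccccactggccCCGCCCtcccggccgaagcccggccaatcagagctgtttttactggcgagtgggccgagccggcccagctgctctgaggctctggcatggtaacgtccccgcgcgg
Sp1, chr15:102406066-102406365, plus strand: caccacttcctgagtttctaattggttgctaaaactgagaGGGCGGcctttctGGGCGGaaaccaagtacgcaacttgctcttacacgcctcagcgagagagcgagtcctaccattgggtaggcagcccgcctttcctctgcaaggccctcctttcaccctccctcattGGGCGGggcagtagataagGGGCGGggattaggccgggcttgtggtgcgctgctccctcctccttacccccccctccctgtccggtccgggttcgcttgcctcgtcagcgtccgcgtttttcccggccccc
Mindy2, chr9:70657098-70657397, minus strand: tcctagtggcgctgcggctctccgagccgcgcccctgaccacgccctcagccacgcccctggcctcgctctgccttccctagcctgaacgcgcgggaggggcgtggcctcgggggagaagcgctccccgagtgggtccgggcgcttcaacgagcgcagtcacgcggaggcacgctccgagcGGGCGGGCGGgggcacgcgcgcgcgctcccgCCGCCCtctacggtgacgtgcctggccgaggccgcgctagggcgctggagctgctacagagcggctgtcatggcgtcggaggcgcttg
Mllt10, GC-rich start, chr2:18064335-18064634, plus strand: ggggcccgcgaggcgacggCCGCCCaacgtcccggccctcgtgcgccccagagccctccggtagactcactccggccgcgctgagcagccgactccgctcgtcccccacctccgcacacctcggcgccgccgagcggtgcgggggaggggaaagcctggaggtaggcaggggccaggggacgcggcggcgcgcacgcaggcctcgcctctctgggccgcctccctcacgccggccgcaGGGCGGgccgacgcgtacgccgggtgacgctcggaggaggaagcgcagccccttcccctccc
Mllt10, start nearest to its strongest Mta2 peak, chr2:18055478-18055777, plus strand: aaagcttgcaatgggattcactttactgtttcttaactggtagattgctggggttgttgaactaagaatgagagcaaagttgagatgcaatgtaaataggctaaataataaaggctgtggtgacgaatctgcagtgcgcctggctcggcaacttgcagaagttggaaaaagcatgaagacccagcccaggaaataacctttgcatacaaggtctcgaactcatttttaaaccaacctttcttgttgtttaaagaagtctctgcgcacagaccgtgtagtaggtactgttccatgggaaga

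The Fam120a window was 84.3% G or C with 7 GC boxes, and the Prpf40b window 78.3% with 5. Sp1 had 61.7% and 4 GC boxes, and Mindy2 75.3% and 3. The GC-rich start of Mllt10 had 78.3% and 2 GC boxes, while the start nearest to its strongest Mta2 peak had 42.7% and none of these letters. Of all 32619 RefSeq promoter windows of this length on the same chromosomes, 35.9% held GGGCGG, and of the 10956 with a Mta2 summit 65.0% did. The median G or C content was 53.0% over all windows and 61.7% over those with a Mta2 summit. The letters CCAAT occurred 3 times in the Sp1 window and once in that of Prpf40b, against a match in 37.6% of all windows and 37.9% of those with a Mta2 summit. The letters GACCC, the core that Zbtb7a binds, were in the Prpf40b and Mindy2 windows shown, in 44.1% of all windows and in 51.9% of those with a Mta2 summit. They were also in the Mllt10 window of low G and C content. Of the other motifs searched on both strands, the E-box CACGTG matched Prpf40b once and is found in 7.20% of all windows and 10.5% of those with a Mta2 summit. The site of GATA factors, searched as GATAAG, matched Sp1 once and is found in 7.47% of all windows and 4.45% of those with a Mta2 summit. The TATA box, searched as TATAAA, had no match in the 6 windows shown, against 13.7% of all windows and 6.22% of those with a Mta2 summit. The same held for the core bound by ETS proteins, searched as CCGGAAG, which 8.92% of all windows and 18.5% of those with a Mta2 summit contain. The other Mindy2 entry, not shown, has 1 match to it. The core of the NRF1 palindrome was searched as GCATGCG and is found in 3.59% of all windows and 6.45% of those with a Mta2 summit, with no match in the 6. The element of AP-1, searched as TGANTCA, likewise had no match there, against 7.85% of all windows and 4.90% of those with a Mta2 summit. Motifs can share letters with each other, and a match is a run of letters, not a bound site.

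Summits of all 3 factors lay in the same promoter windows. Of the 9 entries, 6 held a Mta2 summit, 6 a Mbd3 summit and 6 a Zbtb7a summit, against 33.6%, 32.6% and 31.6% of all promoter windows. The entries of Mindy2 overlap each other and hold the same summits, so that place is counted in both. The genes were chosen by their Mta2 peaks. Over all genes with a Mta2 peak, the strongest one overlapped both partners in 95.9%. Nothing is therefore read from these counts. At Fam120a the summits of Mta2, Mbd3 and Zbtb7a lay 142, 156 and 137 bp upstream of the start. At Prpf40b they lay 108, 112 and 113 bp upstream. At the Mindy2 start shown they lay 128, 132 and 104 bp upstream. At Sp1 all 3 lay downstream of the start, by 372, 404 and 399 bp, and so outside the window shown. The GC-rich Mllt10 start had summits 43 bp upstream for Mta2, 57 bp upstream for Mbd3 and 13 bp downstream for Zbtb7a. The Mllt10 window of low G and C content held summits of weak peaks, with folds of 4.14 (Mta2), 3.42 (Mbd3) and 5.26 (Zbtb7a). Only entries of Fam120a, Prpf40b and Mindy2 held the summit of the gene's strongest Mta2 peak.

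Mllt10 encodes AF10, a cofactor of the histone methyltransferase Dot1l and a fusion partner of Kmt2a in leukaemia. Its strongest peak had the highest fold of the whole Mta2 list, 174 (chr2:18055963-18058350, mm10, −log10 q 4900). Mbd3 had a fold of 77.6 there, the 16th of its list, and Zbtb7a a fold of 65.1, the 242nd of its list. The 3 summits lay within 4 bp of each other. The Mta2 summit was 1025 bp downstream of one annotated start and 7832 bp upstream of the GC-rich start. At the GC-rich start itself Mta2 had a fold of 27.4, Mbd3 21.5 and Zbtb7a 41.7. In each list the GC-rich start was thus the lower of these places.

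The strongest peak also covers Mir7655, a microRNA gene 1093 bp from the Mta2 summit. Its mature products are the stretches inside the peak for which a sequence was at hand, and capitals mark the seed, bases 2 to 8.
mmu-miR-7655-5p, chr2:18057846-18057867, plus strand: cGGCCCACggagcuccuaaaga
mmu-miR-7655-3p, chr2:18057882-18057903, plus strand: uUUAUGACgcuccgugggccug

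Further peaks inside Mllt10 lay 11.5 and 15.4 kb above the strongest summit. The folds were 30.2 for Mta2, 29.7 for Mbd3 and 22.0 for Zbtb7a at the nearer of them. At the farther one they were 27.1 for Mta2, 26.9 for Mbd3 and 16.8 for Zbtb7a. Outside the span, 18.5 kb below the strongest summit, Mta2 had a fold of 19.0, Mbd3 19.5 and Zbtb7a 16.2. The window held 27 Mta2, 23 Mbd3 and 18 Zbtb7a summits, and 16 peaks of each list overlapped both others. Over the whole lists 68.4% of Mta2, 78.6% of Mbd3 and 86.6% of Zbtb7a peaks did so. The window reaches into the coding genes Skida1 and Dnajc1, the last an endoplasmic reticulum co-chaperone. Skida1 has the same strongest peak in its own window, 8304 bp from its nearer end, so distance alone does not assign the peak to Mllt10.

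Sp1 encodes an activator with zinc fingers for GC boxes, present in many promoters. Its strongest Mta2 peak had a fold of 84.2, the 9th of the list (chr15:102404857-102407235, −log10 q 2348). Mbd3 had a fold of 41.4 there, at rank 849. Zbtb7a had a fold of 70.7 at rank 155, the highest Zbtb7a fold at any of the 6 sites. A second site lay 6.93 kb below the summit and outside the gene, with folds of 22.9 for Mta2, 16.4 for Mbd3 and 34.4 for Zbtb7a. Weaker Mta2 peaks farther below had folds of 12.1, 8.66 and 7.65, with Zbtb7a folds of 8.66, 2.34 and 4.90 at the same places. The window held 13 Mta2, 13 Mbd3 and 6 Zbtb7a summits, or 18.5, 18.5 and 8.56 per 100 kb. The medians over all protein-coding genes were 8.64, 7.64 and 7.07 per 100 kb. Of 14 merged regions around Sp1, 5 held Mta2 and Mbd3 without Zbtb7a, against 10.8% of all merged regions in the genome. Inside the span there were 4 Mta2, 4 Mbd3 and 1 Zbtb7a summits. Where a list shows no peak the signal missed the authors' threshold, which does not show that the factor was absent.

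Prpf40b encodes a WW domain protein that associates with the U1 small nuclear ribonucleoprotein and takes part in splicing. Its strongest Mta2 peak, the 4th of the list, had a fold of 94.6 (chr15:99294552-99295975, −log10 q 2170). Mbd3 and Zbtb7a had folds of 35.5 and 36.0 there, at ranks 1709 and 2576 of their lists. The summit lay 57 bp inside the Prpf40b span and also inside the overlapping gene Fam186b, 6642 bp from its nearer end. The second site of the window, 38.0 kb above the first, had folds of 53.3 for Mta2, 31.4 for Mbd3 and 31.1 for Zbtb7a. The first fold was 1.78 times the second for Mta2, 1.13 times for Mbd3 and 1.15 times for Zbtb7a. The second site lay inside Fmnl3, a formin gene for actin assembly. Another site, inside Fam186b and 10.5 kb below the first, had folds of 22.7, 20.2 and 19.2. This window had the highest density of the 6, with 25.8 Mta2 summits per 100 kb, against a median of 8.64 over all protein-coding genes.

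Fam120a encodes an RNA-binding scaffold protein that links Src family kinases to survival signalling under oxidative stress. The strongest peak was the 3rd of the Mta2 list with a fold of 113 (chr13:48966767-48968975, −log10 q 2913). Mbd3 had a fold of 45.3 at rank 505, and Zbtb7a a fold of 37.6 at rank 2204. The Mta2 summit fell in the antisense gene Fam120aos, 90 bp from its end, so the peak lies over an end of both genes. The other strong Mta2 peaks of the window had folds between 13.2 and 15.8. At the highest of them, 5356 bp into the gene, the folds were 15.8 for Mta2, 16.7 for Mbd3 and 12.9 for Zbtb7a. Zbtb7a also had a fold of 22.3 near the end of Phf2, a histone demethylase gene below Fam120a. Of 19 merged regions in the window, 15 (78.9%) held all 3 factors, against 61.4% of all merged regions in the genome. With so few regions nothing is read from this difference.

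Mindy2 encodes a deubiquitinase that trims long ubiquitin chains. Its site was the only one of the 6 that stood about equally high in the Mta2 and Mbd3 lists. The Mta2 fold was 84.1 at rank 10 (chr9:70655819-70658010, −log10 q 1860), and the Mbd3 fold was 82.3 at rank 9. Zbtb7a had a fold of 37.4, at rank 2256. Peaks outside the 6 stood alike in the Mta2 and Mbd3 lists, at ranks 11 and 13 for Anks3 and 12 and 8 for E2f5. The next Mta2 peak of the Mindy2 window, at the far end of that gene, had a fold of 12.4, with 9.14 for Mbd3 and 7.88 for Zbtb7a. The strongest fold was thus 6.75 times the second for Mta2, 9.01 times for Mbd3 and 4.75 times for Zbtb7a. The peak overlaps the long non-coding gene Gm31872, whose nearer end is 396 bp from the Mta2 summit.

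Mpp7 encodes a membrane-associated guanylate kinase scaffold that binds Dlg1 and Lin7 proteins at cell junctions. Its strongest peak, the 2nd of the Mta2 list, lay inside the gene, 17718 bp from the nearer end, with a fold of 119 (chr18:7608644-7609755, −log10 q 1929). Mbd3 had a fold of 16.7 there, at rank 15051, and Zbtb7a a fold of 21.7, at rank 9456. The Mbd3 and Zbtb7a summits were 108 and 134 bp from that of Mta2, on the same side, whereas at the other 5 genes summits differed by 3 to 32 bp. The Mta2 peak was 1112 bp wide, the narrowest of the 6, against a longest of 2388 bp at Mllt10.

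The other strong sites of the Mpp7 window were shared by all 3 lists. At the upper end of the gene the folds were 20.1 for Mta2, 15.4 for Mbd3 and 12.4 for Zbtb7a. At a place 18186 bp beyond that end they were 19.4 for Mta2, 20.5 for Mbd3 and 21.8 for Zbtb7a, and this was the strongest site of the window for Mbd3 and Zbtb7a. Its Zbtb7a fold was 1.01 times that at the strong Mta2 site. The other Mta2 peaks of the window had folds of at most 6.01. Mpp7 spans 278928 bp and had 10 Mta2, 8 Mbd3 and 7 Zbtb7a summits, or 3.14, 2.51 and 2.19 per 100 kb, the lowest density of the 6. The medians over all protein-coding genes were 8.64, 7.64 and 7.07 per 100 kb.

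**Figure D1:**
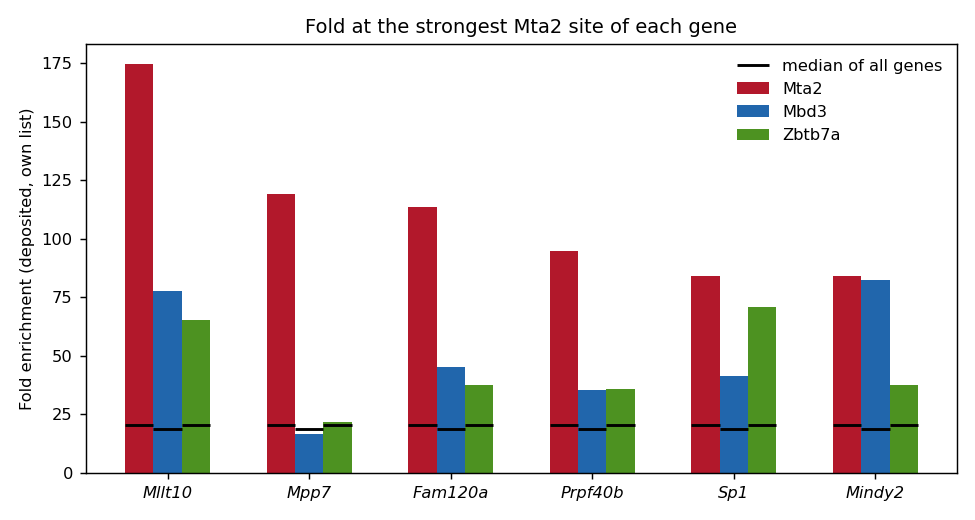
Deposited fold enrichment (y axis) of Mta2, Mbd3 and Zbtb7a at the strongest Mta2 peak of each gene, with a black line at the median over all genes of the strongest fold in the same list (20.4, 18.9 and 20.3). There is 1 merged list per factor and no error bar, and the Mbd3 bar of Mpp7, at 16.7, is the one below its line.

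**Figure D2:**
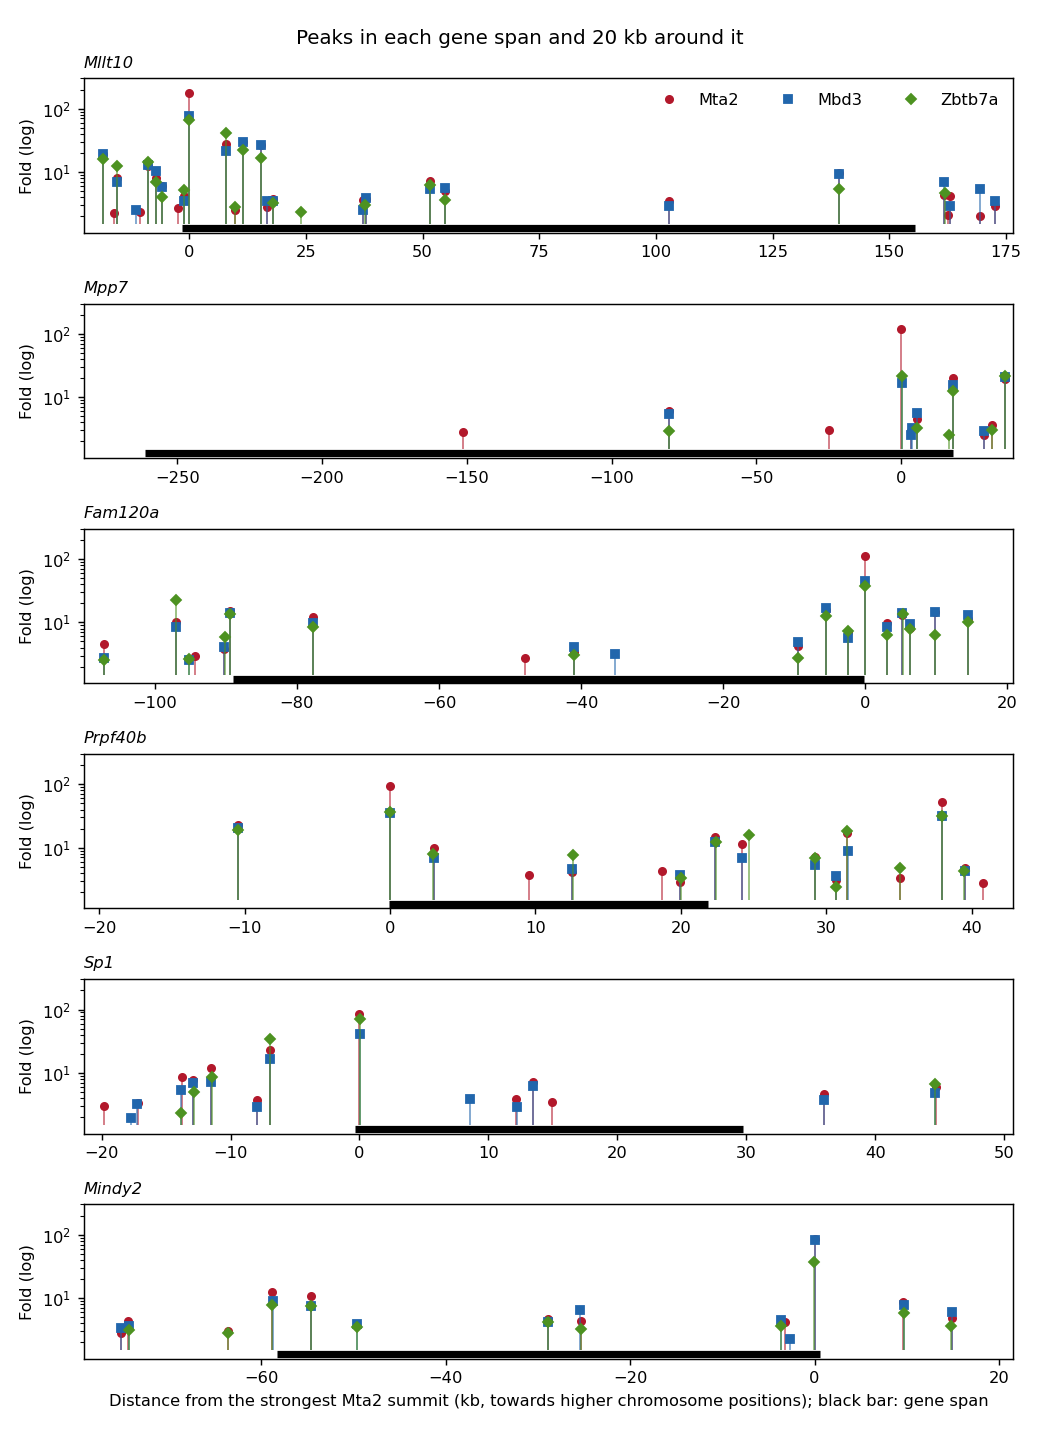
Fold on a log axis of every Mta2, Mbd3 and Zbtb7a peak in each gene span and 20 kb around it, against the distance of its summit from the strongest Mta2 summit in kb, with the gene span as a black bar. One site stands above the rest in the Mta2 list of each panel, and at Mpp7 the Mbd3 and Zbtb7a points at distance 0 are close to those at 35.9 kb. At Mindy2 the Mbd3 point covers that of Mta2 at distance 0.

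Every one of the 6 strongest Mta2 peaks overlapped a Mbd3 peak and a Zbtb7a peak by at least 1 bp. Over all genes with a Mta2 summit in the window the shares were 97.8% with Mbd3, 96.4% with Zbtb7a and 95.9% with both, so 6 of 6 is near the background. At 5 of the 6 genes that place was also the strongest of the window for Mbd3, and at 5 for Zbtb7a, with Mpp7 as the exception for both. The shares over genes with peaks of both lists were 82.9% for Mbd3 and 73.2% for Zbtb7a, again near those of the 6. The strongest Mta2 summit was within 1 kb of an end of the span at 4 of 6 genes, and the choice of the genes used that peak, so nothing is read from this share. All 6 had a summit of each factor in the window, and over all protein-coding genes the shares with a summit were 86.4% (Mta2), 85.5% (Mbd3) and 85.0% (Zbtb7a).

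The 6 genes stood high in the partner lists as well, apart from Mpp7. By the strongest Mbd3 fold in the window, Mindy2 and Mllt10 were 11th and 20th of all genes, both at percentile 99.9 of those with a peak. Fam120a, Sp1 and Prpf40b were at percentiles 97.0, 95.1 and 90.3, and Mpp7 at 55.9. By the strongest Zbtb7a fold, Sp1 and Mllt10 were at percentiles 98.6 and 98.0. Fam120a, Mindy2 and Prpf40b followed at 85.3, 84.9 and 83.1, and Mpp7 was at 54.3. The medians over the 6 genes were folds of 104 for Mta2, 43.3 for Mbd3 and 37.5 for Zbtb7a. The same medians over all genes with a peak were 20.4 (Mta2), 18.9 (Mbd3) and 20.3 (Zbtb7a). The order of the genes differed between the lists: Mllt10 led for Mta2, Mindy2 for Mbd3 and Sp1 for Zbtb7a.

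To see how the partners stood where Mta2 is very high, the 6 peaks were set beside the other 94 of the 100 highest Mta2 folds. Each of these 100 peaks overlapped a peak of both other lists. At the 6 sites Mbd3 folds ran from 16.7 to 82.3 with a median of 43.3, and at the other 94 from 24.4 to 97.9 with a median of 60.0. The Mbd3 fold at Mpp7 was below all 94, that at Prpf40b above 1 of them, at Sp1 above 10 and at Fam120a above 14. Mllt10 was above 80 and Mindy2 above 86. For Zbtb7a the 6 sites ran from 21.7 to 70.7 with a median of 37.5, and the other 94 from 4.34 to 162 with a median of 56.7. Mpp7 was above 2 of them, Prpf40b above 12, Fam120a and Mindy2 above 14, Mllt10 above 56 and Sp1 above 65. Since the 6 were picked at the top of the Mta2 list, lower places in the other lists are to be read as a description.

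**Figure D3:**
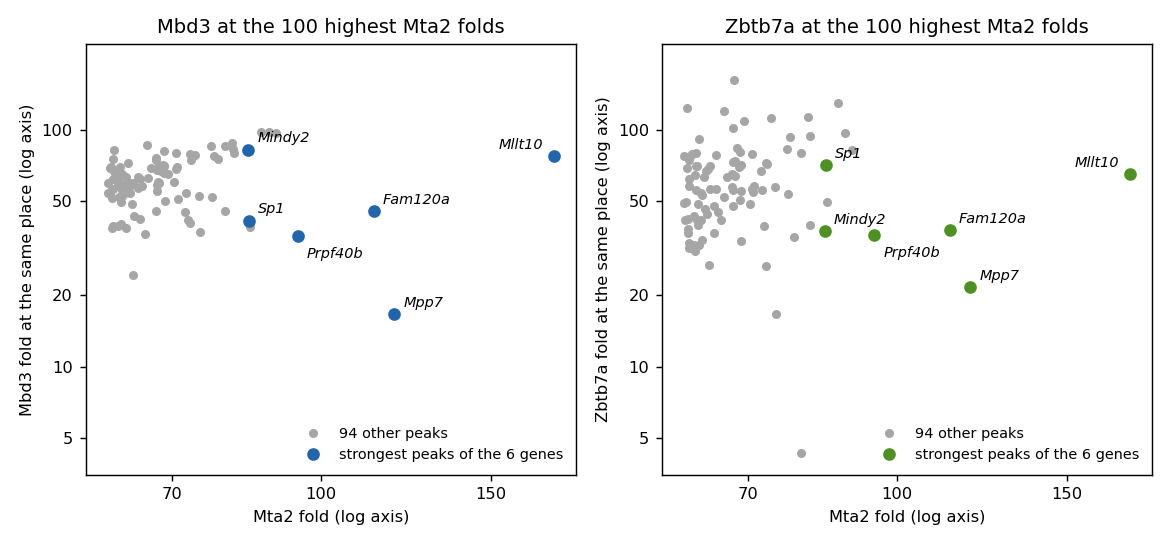
Mbd3 fold (left) and Zbtb7a fold (right) at the place of each of the 100 highest Mta2 folds, on log axes, with the strongest peaks of the 6 genes in colour and the 94 others in grey. Mpp7 has the lowest Mbd3 fold of all 100, at 16.7, while Mindy2 and Mllt10 lie among the higher Mbd3 values.

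The gap between the strong Mta2 peak and the other peaks of its own window differed between the genes. The highest Mta2 fold was 7.19 times the second at Fam120a, 6.75 at Mindy2, 5.93 at Mpp7, 5.78 at Mllt10, 3.68 at Sp1 and 1.78 at Prpf40b. At least 5 times was thus reached by 4 of the 6, against 2.88% of the 17222 genes with 2 or more Mta2 summits. The median ratio over those genes was 1.41. The choice of the 6 by their Mta2 fold favours such a gap, so nothing is read from these Mta2 ratios. For the partners the median ratio over the 6 was 2.57 for Mbd3 and 1.62 for Zbtb7a, against 1.42 and 1.51 over all genes with 2 or more summits. Over all 94 Mta2 peaks the median fold was 4.77, against 5.21 in the whole list. The strongest peak of each list in the 6 windows had a median width of 2200.5 bp for Mta2, 2064.5 bp for Mbd3 and 1909.5 bp for Zbtb7a, and the others 416.5, 479 and 374 bp. Over the whole lists these medians were 450, 422 and 393 bp.

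Sharing in the windows was close to that of the whole lists. Of the 94 Mta2 peaks 67.0% overlapped both other lists, against 68.4% of all Mta2 peaks. For Mbd3 it was 74.1% in the windows against 78.6% of the list, and for Zbtb7a 90.1% against 86.6%. The 3 lists merged into 99 regions in the windows, of which 63 (63.6%, exact Clopper-Pearson 95% interval 53.4 to 73.1, for counting error only) held all 3 factors, against 61.4% of 164813 regions in the genome. Mta2 and Mbd3 without Zbtb7a held 14 regions (14.1%), 6 of them at Mllt10 and 5 at Sp1, against 10.8% in the genome. Mta2 alone held 11 (11.1%), against 14.1% in the genome, so both shares are near the background. The 11 were spread over every gene but Mindy2, with folds from 2.22 to 4.28. Mbd3 alone held 4 and Zbtb7a alone 1, which lay inside Mllt10 at a fold of 2.34. Across the places in the windows where a Mta2 peak overlapped a partner, the Pearson correlation of log2 fold was 0.91 with Mbd3 (79 peaks) and 0.90 with Zbtb7a (67 peaks). These places share the tissue and the genotype, and many are neighbours in 1 window. They include the 6 peaks chosen for a very high Mta2 fold, which widen the range. No correlation over the whole lists is set beside these values, so they only describe the windows.

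Genes whose strongest folds in the 3 lists came nearest to those of a member were found by distance on the log2 scale over those 3 values. The nearest to Mindy2 were Lrrcc1 and E2f5, which share a site, at a distance of 0.10 and with folds of 81.1 for Mta2, 82.6 for Mbd3 and 39.6 for Zbtb7a. Zfp609, at 0.34, was among the nearest to Sp1. Trip4 (0.46) and Ivd (0.51) were nearest to Prpf40b, and Ivd and Bahd1 (0.62, a shared site) to Fam120a. Mpp7 and Mllt10 had no near match. The closest to Mpp7 were Sdhaf2 and Cpsf7, again a shared site, at 0.98 with folds of 63.7, 24.4 and 26.8. Armc12 at 1.07 and Auts2 at 1.18 were closest to Mllt10.

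Near the limit of the choice, the values were close together. Mindy2 had the lowest Mta2 fold of the 6, at 84.1, and 8 other genes had one at least as high in their windows. Of these, Skida1 and Fam186b share a peak with a member, and Armc12, Tef, Tob2, Tpcn2, Bahd1 and Ivd had folds from 84.5 to 89.7. Just below were Anks3 at 81.3, E2f5 and Lrrcc1 at 81.1 and Chd9 at 80.9. At the border of the window, the outermost Mta2 summit inside the 20 kb of Mindy2 had a fold of 2.82, and the next one outside, 21076 bp from the span, a fold of 25.8. At Mllt10 these folds were 2.91 inside and 14.7 outside, and at Mpp7 19.4 and 13.7.

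Relatives of the 6 genes, listed by function with earlier results of these data known, had lower Mta2 folds than the 6. All 43 had a Mta2 summit in the window, against 86.4% of protein-coding genes. None reached the fold of Mindy2, the weakest of the 6. Mindy2 was 14th of the 18695 genes with a Mta2 peak, so nothing is read from this. The strongest Mta2 fold of the relatives was above the median of all genes in 30 of 43. By definition that median divides the genes with a peak evenly. The median Mta2 percentile of a list ran from 36.9 for the Fam120 pair to 78.2 for the partners of Mllt10. Partners of Mllt10 around Dot1l and transcription elongation had a median Mta2 fold of 29.6, from 18.4 at Mllt1 to 48.5 at Aff1, a scaffold of the super elongation complex. Scaffolds related to Mpp7 had a median of 28.9, from 9.70 at Lin7b to 47.7 at Mpp6. Splicing factors around the U1 particle had 21.0, with the highest value, 46.5, at Luc7l3. The Sp family had 20.8, from 6.45 at Sp9 to 43.9 at Sp3, which binds the same GC boxes as Sp1. The MINDY family had 22.6, from 22.0 at Mindy1 to 41.6 at Mindy4. Fam120b and Fam120c had 16.6 and 17.2.

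In the partner lists the medians of these groups ran from 16.6 to 25.0 for Mbd3 and from 17.9 to 30.3 for Zbtb7a, against 18.9 and 20.3 over all genes. Partners of Mllt10 had medians of 23.3 for Mbd3 and 30.3 for Zbtb7a. Scaffolds related to Mpp7 had 25.0 and 28.4, U1 factors 18.2 and 24.6, the Sp family 22.0 and 26.7, the MINDY family 22.0 and 25.3 and the Fam120 pair 16.6 and 17.9. Within the Sp family, Zbtb7a folds ran from 2.89 at Sp9 and 4.05 at Sp8 to 44.9 at Sp4, with 34.1 at Sp5. Mindy4 had a Zbtb7a fold of 65.8, against 37.4 at Mindy2. As a check of the tissue, the 15 kidney cortex markers, among them Lrp2, Slc34a1 and Umod, all had a Mta2 summit, with a median strongest fold of 25.0. The 6 markers of other tissues, such as Alb and Myh6, also had one each, with a median of 16.4, so presence of a peak does not mark the tissue.

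**Figure D4:**
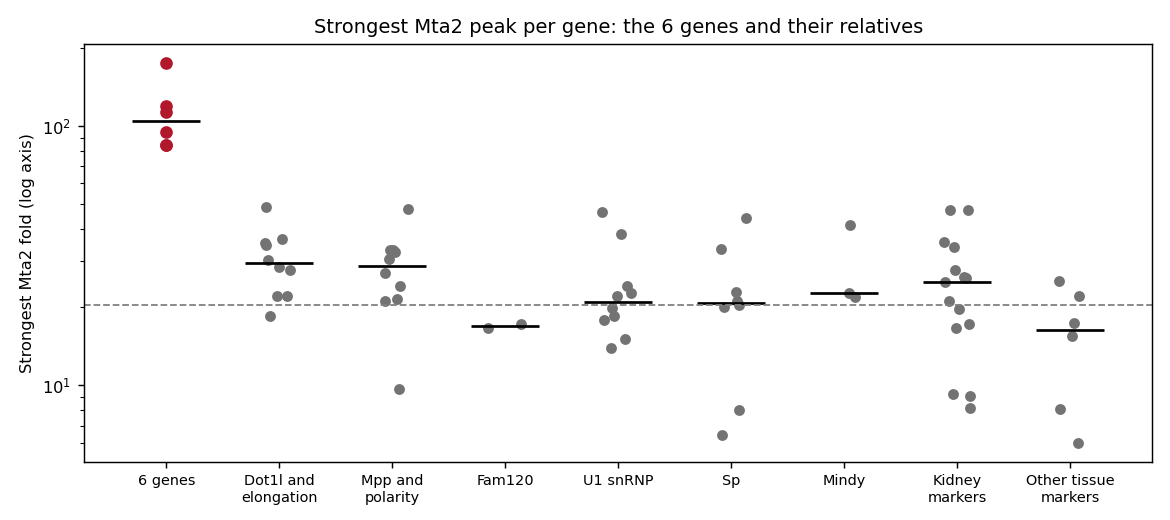
Strongest Mta2 fold in the window (log axis) for the 6 genes, their relatives by list and markers of kidney and other tissues, each point a gene, with list medians as black lines and the median of all genes as a dashed line at 20.4. The 6 genes, picked for this value, lie from 84.1 to 174, and the highest of the relatives, Aff1, is at 48.5.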

How the data were processed

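Chromatin immunoprecipitation with sequencing was analysed from 3 deposited peak lists, 1 for each of Mta2, Mbd3 and Zbtb7a, in narrowPeak layout. MACS2, Bowtie2, bedtools and deepTools were run on the mm10 build, per the submitters' processing notes. Their versions and settings, and how replicates were merged, are not stated there or in the labels. The authors deposited a fold enrichment per peak (a ratio over background), −log10 values of p and q, a score (not used) and the summit offset. The 6 genes, the gene lists and the motifs were chosen with earlier results of these data known.

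Peaks on autosomes and chromosome X were assigned by summit to RefSeq spans (GRCm38.p6, the coordinates of mm10) plus 20 kb, and overlap meant at least 1 shared bp. The same measures were taken over 21631 protein-coding genes. Named were the 6 genes, up to 5 Mta2 peaks each, neighbours in the windows, nearest genes by fold, and the extremes of each related list, and further relatives (Sp4, Sp8) were named after their values were seen. Of 64 listed genes 64 matched. No p-value was computed, since 1 merged list per factor leaves no replicates. Assignment, overlap and the finding of the strongest fold per gene were tested on simulated peaks, whereas ranks and percentiles were not. Python 3.11.15, numpy 2.4.6, pandas 2.3.3, scipy 1.17.1 and matplotlib 3.10.9 were used. Alternatives were other windows, a −log10 q minimum of 10, a stricter overlap and ranking by −log10 q. A few single-gene values that the naming rule would give are not reported here.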

Additional observations from a re-analysis of the deposited data

How the results depend on the processing

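Of 51 values recomputed under other settings, 38 stayed within their limits, and 13 moved. The limits were wide for summit counts and narrow for percentiles, so staying within them does not mean little change. The Mta2 count of 94 became 130 with 50 kb and 64 with a minimum −log10 q of 10, both within limits. A median Zbtb7a percentile of 84.4 against 85.1 counted as moved. Mta2 had more summits in the windows than Mbd3 as reported and with windows of 0, 5 and 50 kb. Under a minimum −log10 q of 10 this order turned round, with 64 Mta2, 66 Mbd3 and 50 Zbtb7a summits, and the cause was not tested. Windows of 0 kb gave 41 Mta2, 39 Mbd3 and 32 Zbtb7a summits, and windows of 5 kb gave 51, 48 and 41, because they hold less sequence. The median gene percentile by Mbd3 was 97.2 with 5 kb, 93.5 with 50 kb and 96.9 with ranking by −log10 q, against 96.1 as reported. That by Zbtb7a was 91.7 with 0 kb, 89.1 with 5 kb, 78.1 with 50 kb and 84.4 with a minimum −log10 q of 10, against 85.1, and the cause was not tested. With 5 kb the strongest Mbd3 and Zbtb7a peaks coincided with the strong Mta2 peak at all 6 genes, since the stronger site of Mpp7 lies beyond 5 kb. With 0 kb they coincided at all 6 with the strongest Mta2 peak left inside the span. At Fam120a this was not the strong peak, whose summit lies 142 bp outside the span. The peak left there had folds of 15.8 for Mta2, 16.7 for Mbd3 and 12.9 for Zbtb7a. The share of merged regions with all 3 factors ran from 61.0% with 50 kb to 66.1% with 5 kb. Summits near an end of the span numbered 7, 10 and 15 for Mta2 with 0.5, 1 and 3 kb, 7, 9 and 14 for Mbd3 and 6, 9 and 15 for Zbtb7a. No paired analysis was possible because each factor has 1 merged list, and for the same reason no replicate could be left out. What depth limits was not tested, since the lists hold no read counts.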

Other observations

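Further peaks among the 100 highest Mta2 folds are given as values, chosen after they were seen. A peak inside Cacng4, a calcium channel gamma subunit gene, had a Mta2 fold of 79.5 at rank 14, a Mbd3 fold of 45.5 at rank 482 and a Zbtb7a fold of 4.34 at rank 70869, below the median of 5.00 of the Zbtb7a list. At Krt10, a keratin gene, the folds were 74.8 for Mta2, 37.1 for Mbd3 and 16.6 for Zbtb7a. At Thap4 they were 73.1 for Mta2, 40.5 for Mbd3 and 26.5 for Zbtb7a. The peak at Cpsf7, a cleavage and polyadenylation factor gene, had folds of 63.7 for Mta2, 24.4 for Mbd3 and 26.8 for Zbtb7a, and it was the lowest Mbd3 value of the 100 after Mpp7. The partner folds at Thap4 and Cpsf7 are above the 90th percentiles of their lists, 17.7 for Mbd3 and 18.8 for Zbtb7a. None of these differences was tested, since the lists hold no value per replicate.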
